A study of Homo sapiens with 35 samples.

Results

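The genes described here are 53 genes of DNA replication and of the E2F programme, taken by name from the count table: the licensing factors and the MCM helicase, the CDC45 and GINS helicase activators, the primase and polymerases, the sliding clamp and its loader, replication protein A and the lagging-strand enzymes, deoxynucleotide synthesis, 3 E2F factors, and a set of E2F target genes of chromatin assembly, checkpoint and repair. All 53 symbols were among the 28503 entries of the table. POLE2, a subunit of polymerase epsilon, was marked as not quantified in all 6 libraries, stands there at 0, and has no value here. The other 52 genes passed the filter on low counts, with 235 to 11177 fragments per gene and library, so the filter removed none of them. RNA was sequenced from DU145, an established line of prostate carcinoma cells that was grown from a metastasis in the brain, in which each culture carried a short hairpin RNA: shLuciferase, the control, shZMYND8 or shJARID1D, with 2 libraries in each group. All groups, the controls included, therefore carried a hairpin, and no untreated RNA library was compared. ZMYND8 is a reader of modified histone tails and JARID1D (gene KDM5D) a histone H3 lysine 4 demethylase. The labels used here give neither the number of hairpin sequences per target nor whether both libraries of a group were grown separately. Every p-value below thus rests on the spread between these libraries alone, and that spread may be technical.

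Replication starts from origins that were licensed in G1. The origin recognition complex (ORC), CDC6 and CDT1 load the ring-shaped MCM2 to MCM7 helicase onto DNA, geminin (GMNN) blocks reloading, and in S phase CDC45 and the GINS complex join MCM to form the running helicase. Many of these genes are switched on at the G1/S boundary by E2F transcription factors, which the retinoblastoma protein RB holds back until cyclin-dependent kinases release them. DU145 is known for a defective RB1 gene, so this restraint is not intact in these cells to begin with. Genes of mitosis are switched on later in the cycle, mostly through other promoter elements, the CHR and CCAAT boxes.

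The library totals of estimated counts were 22090855 to 24179831 per library over the 28443 quantified genes. Levels are in CPM, the usual measure of a gene's count relative to the size of its library, with sizes adjusted by the trimmed mean of M values. The targeted genes went with the labels: ZMYND8 was at 64.7 and 52.7 CPM in shLuciferase against 35.5 and 33.2 CPM in shZMYND8 (log2 fold change -0.77 ± 0.13, edgeR adjusted p = 0.00491), and KDM5D at 58.1 and 61.0 CPM in shLuciferase against 19.6 and 17.9 CPM in shJARID1D (-1.67 ± 0.12, edgeR adjusted p = 0.000831). Of the epithelial markers, KRT8, KRT18 and KRT19 were at 199 CPM or more in every library, CDH1 at 29.0 to 83.8 CPM and EPCAM at 5.84 to 21.0 CPM. The prostate luminal gene KLK2 and the leukocyte gene CD3E had no fragments, and PTPRC was at no more than 0.0429 CPM. Throughout, a gene is said to have risen, fallen or passed where its p from the quasi-likelihood test of edgeR, adjusted by Benjamini-Hochberg over all 15867 genes in the test, was under 0.05. The number after ± beside a log2 value is the standard error in that fit.

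Promoters are shown for the members with the 3 smallest adjusted p in the comparison of shZMYND8 with shLuciferase. Each runs from 120 bases before to 10 bases after the RefSeq transcription start (build GRCh38.p14, plus strand) at chr16:58392351-58392480 for GINS3, chr16:46689539-46689668 for ORC6 and chr13:33818029-33818158 for RFC3. Capitals mark matches to the letters of an E2F element or of a CCAAT box on either strand.
GINS3: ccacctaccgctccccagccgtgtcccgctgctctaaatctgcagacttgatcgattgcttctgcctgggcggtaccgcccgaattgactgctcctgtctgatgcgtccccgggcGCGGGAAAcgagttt
ORC6: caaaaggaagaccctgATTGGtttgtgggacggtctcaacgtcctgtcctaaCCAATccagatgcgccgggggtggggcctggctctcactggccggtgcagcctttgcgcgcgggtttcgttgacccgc
RFC3: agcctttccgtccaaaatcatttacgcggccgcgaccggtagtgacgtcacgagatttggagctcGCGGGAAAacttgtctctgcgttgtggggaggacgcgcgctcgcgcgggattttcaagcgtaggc
GINS3 holds the E2F letters GCGGGAAA from base -5, and RFC3 holds the same letters from base -55. ORC6 holds none of the E2F letters searched, and carries ATTGG from base -104 and CCAAT from base -68, that is the CCAAT box in both orientations.

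These elements were counted in the RefSeq windows of 250 bases before to 50 bases after each start, on both strands. The E2F letters searched were TTTCCCGC, TTTGGCGC, TTTCGCGC and TTTGCCGC, the CCAAT box was searched as CCAAT and the CHR as TTTGAA or TTCGAA, and no string in 1 set contains a string of another. Windows were found for 46 of the 53 members, some with several start sites. The 7 others are MCM4, MCM5, GINS4, POLD3, RPA2, RPA3 and E2F8. E2F letters stood in a window of 24 of the 46 members (52.2%) and of 3.99% of all 27305 genes with a window. CCAAT stood in 29 of the 46 (63.0%, against 39.7% of all genes) and CHR letters in 2 of the 46, MCM6 and RRM1 (4.35%, against 19.5%). Of the 15843 protein-coding genes with a window, 5.40% held E2F letters, 42.1% CCAAT and 17.5% CHR letters. The members were chosen in part as genes of the E2F programme, so their share of E2F letters is not an independent result. Of 30 genes of G2 and mitosis listed for comparison, 26 had a window: 2 held E2F letters (7.69%), 22 held CCAAT (84.6%) and 20 held CHR letters (76.9%). Within the members, E2F letters stood in 4 of the 7 that moved in shZMYND8 (GINS3, RFC3, PCNA and TYMS) and in 19 of the 38 tested members with a window that did not pass (50%). A match describes letters in a window and not a bound site.

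In shZMYND8, 6 of the 52 members fell, 1 rose and 45 did not pass. ORC6, RFC3, TYMS, PCNA, RPA1 and SLBP were 1.30-fold to 1.6-fold lower than in shLuciferase, and GINS3 was 1.64-fold higher. The 6 falling members are 11.5% of those tested, where 7.34% of all genes fell, and the single riser compares with 8.89% of all genes that rose. The median log2 fold change of the members was -0.17, against -0.01 over all genes tested, and 44 of the 52 members lay below 0, against 8017 of 15867 genes. Summed over the 52 members, the level was 5214 and 6041 CPM in the shLuciferase libraries, 4656 and 4991 CPM in the shZMYND8 libraries and 5191 and 5850 CPM in the shJARID1D libraries. Both shZMYND8 sums lay below the other 4, and the sums of the other groups interleaved. In RNA from whole cultures, fewer cells in S phase and less of these RNAs per cell cannot be told apart.

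**Figure D1:**
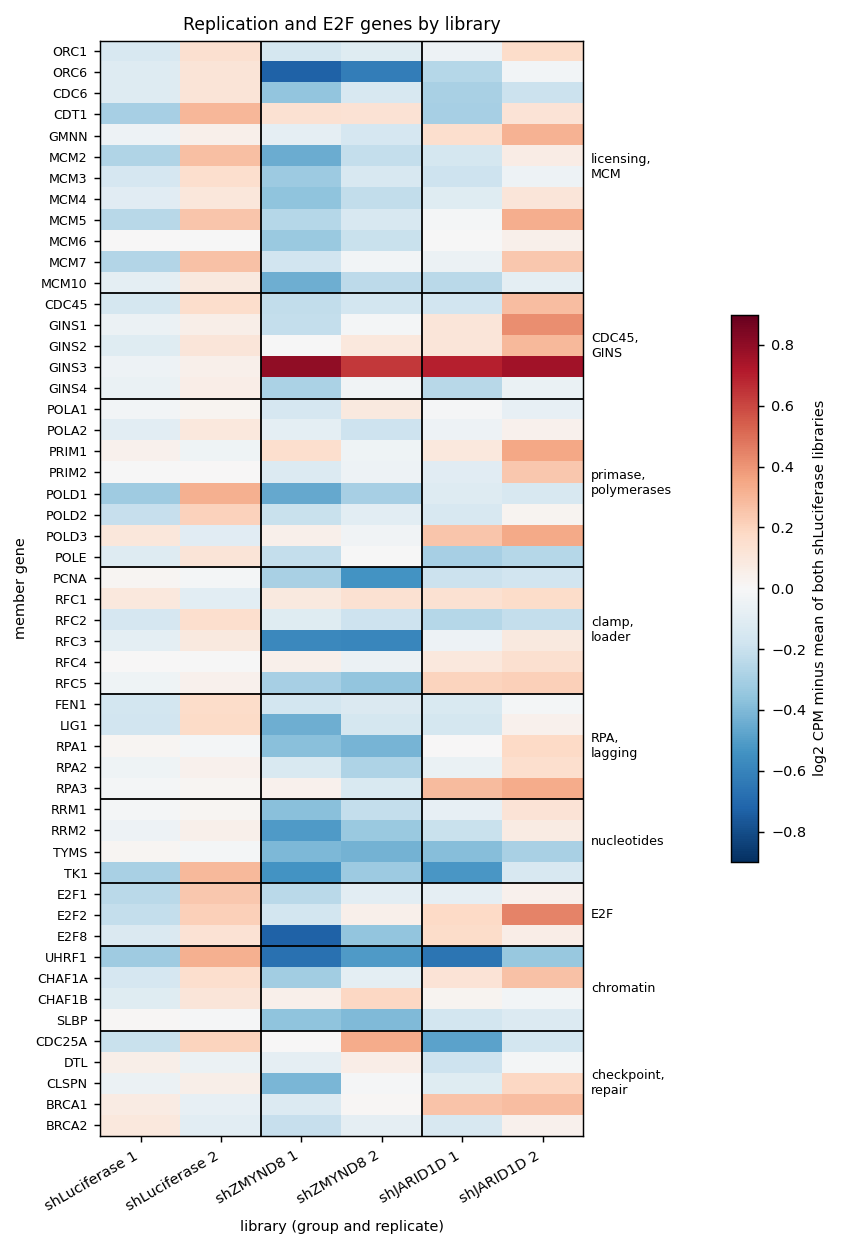
Level of each of the 52 quantified members (rows, grouped by role) in each library (columns), as log2 CPM minus the mean of both shLuciferase libraries. GINS3 is higher in all 4 knockdown libraries, ORC6 and RFC3 are lowest in the shZMYND8 libraries, and the shLuciferase libraries differ from each other at MCM2, MCM5, MCM7, POLD1, TK1 and UHRF1.

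These calls did not all hold when 1 library was left out. Each such fit has a group of 1 library and fewer degrees of freedom. A lost call alone does not show that the library left out carried the change. The share of all genes that passed in each such fit is not given, so these counts are not read as results about the members. Over these fits the log2 fold change was -0.79 to -0.56 for ORC6, -0.68 to -0.50 for RFC3 and -0.54 to -0.30 for PCNA. It was -0.42 to -0.38 for RPA1, -0.44 to -0.40 for TYMS, -0.40 to -0.36 for SLBP and 0.63 to 0.79 for GINS3. No member passed by edgeR once shZMYND8 replicate 1 was left out, where unadjusted p was under 0.05 for 6 lower members and 1 higher member. Once shZMYND8 replicate 2 was left out, GINS3 alone passed. Without either shJARID1D library, which enter this comparison only through the shared fit, ORC6 and RFC3 still fell and GINS3 still rose, while PCNA, RPA1, TYMS and SLBP no longer passed. Without shLuciferase replicate 1 the median log2 fold change of the members was -0.31. The 95% interval of the log2 fold change lay within a 2-fold change in either direction for 51 of the 52 members in shZMYND8, the exception being UHRF1 (-1.06 to -0.18), with a median half-width of 0.29.

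In shJARID1D, GINS3 rose, none fell and 51 members did not pass. The riser is 1 of 52, where 2.96% of all genes rose, and no member fell, where 2.79% of all genes did. At an unadjusted p under 0.05 there were 4 members higher and 2 lower, and DESeq2 and limma voom also had none lower. The share of all genes at that unadjusted level is not given here. The median was 0.00 with 26 members on each side of 0, and the median over all genes was 0.00. Both knockdowns are compared with the same 2 control libraries, so their values are given side by side and not as independent evidence.

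Compared directly, 5 members were lower in shZMYND8 than in shJARID1D, none was higher and 47 did not pass. ORC6, RFC3, RFC5, RPA1 and E2F8 were 1.40-fold to 1.56-fold lower, which is 9.62% of the members, where 7.02% of all genes were lower. None was higher, where 8.67% of all genes were. CDC25A had the only positive log2 difference with an unadjusted p under 0.05 (0.49, adjusted p = 0.0856), and DESeq2 and limma voom had none higher either. The median log2 difference was -0.20, against 0.00 over all genes, and 44 of the 52 members lay below 0. No member passed as lower without any 1 of the shZMYND8 or shJARID1D libraries, where 5 to 14 had an unadjusted p under 0.05 in that direction. Over the libraries left out in turn the median log2 difference of the members was -0.28 to -0.097.

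**Figure D2:**
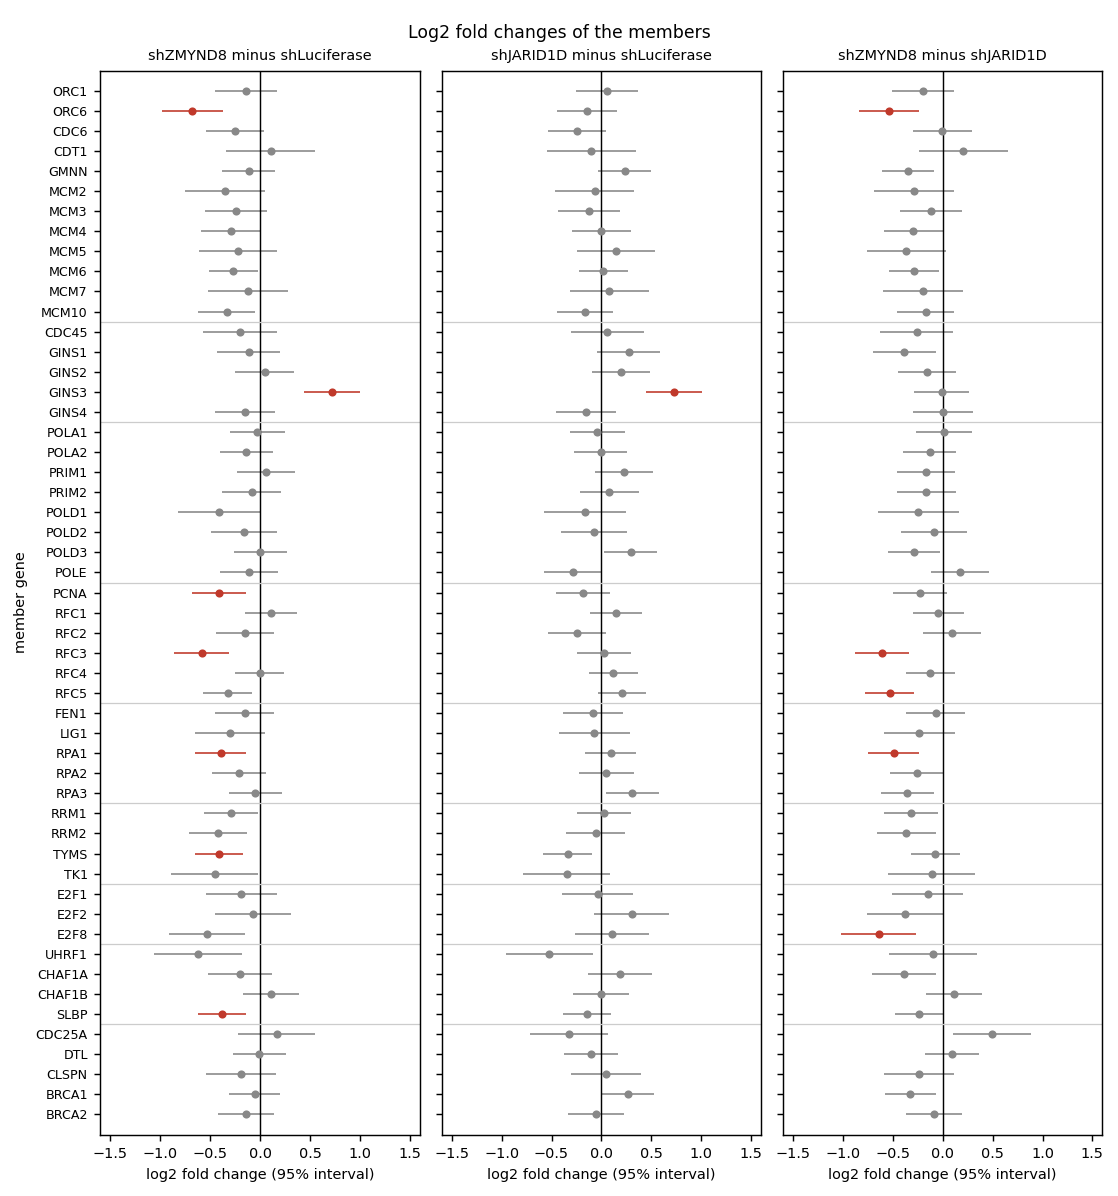
Log2 fold change of each member in the 3 comparisons, with its 95% interval from the edgeR fit. Red marks an adjusted p under 0.05: 7 members in shZMYND8 against shLuciferase, GINS3 in shJARID1D against shLuciferase, and 5 members in shZMYND8 against shJARID1D.

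Of the 12 genes of licensing and the MCM helicase, ORC6 was the only one to pass. ORC6, the smallest ORC subunit, stood at 46.5 and 54.6 CPM in shLuciferase, 30.4 and 32.7 CPM in shZMYND8 and 42.2 and 49.5 CPM in shJARID1D. Both shZMYND8 libraries were below the other 4, and the shLuciferase and shJARID1D libraries overlapped. Against shLuciferase, ORC6 was 1.6-fold lower in shZMYND8 (-0.68 ± 0.14, 95% interval -0.98 to -0.38, edgeR adjusted p = 0.00951) and against shJARID1D 1.45-fold lower (-0.54 ± 0.14, edgeR adjusted p = 0.0273). Over the libraries left out in turn the adjusted p against shLuciferase ran from 0.00290 to 0.103, and the call was lost without either shZMYND8 library. ORC1, the largest subunit and the one whose level is known to change through the cycle, did not pass. It was at 40.6 and 49.8 CPM in shLuciferase, 40.3 and 41.6 CPM in shZMYND8 and 43.6 and 50.4 CPM in shJARID1D. Its log2 fold change in shZMYND8 was -0.14 (95% interval -0.45 to 0.17). Whether ORC6 responds differently from ORC1 was not tested.

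The 6 genes of the MCM2 to MCM7 ring had no call in any comparison. MCM2 stood at 197 and 285 CPM in shLuciferase, 174 and 204 CPM in shZMYND8 and 212 and 249 CPM in shJARID1D. MCM5 stood at 203 and 285 CPM, 201 and 218 CPM, and 237 and 302 CPM in the same order, and MCM7 at 251.4 and 364 CPM, 268 and 297 CPM, and 291 and 358 CPM. For these 3 genes the distance between the shLuciferase libraries was larger than the distance between the group means. MCM6, whose control libraries lay close together (149.7 and 148.3 CPM), was at 118 and 129.6 CPM in shZMYND8, below all other libraries, and missed the threshold (-0.27, 95% interval -0.52 to -0.02, edgeR adjusted p = 0.134). The other licensing genes ran from MCM10, which links the helicase to polymerase alpha (-0.34 in shZMYND8), to CDT1 (0.10), and in shJARID1D the 12 genes ran from -0.25 for CDC6 to 0.23 for GMNN, none past the threshold.

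GINS3 was the member that rose in both knockdowns. It encodes a subunit of the 4-part GINS complex of the helicase. Its level was 17.9 and 19.0 CPM in shLuciferase, 32.0 and 28.6 CPM in shZMYND8 and 29.9 and 31.1 CPM in shJARID1D. All 4 knockdown libraries were above both controls, and the knockdown groups overlapped each other. GINS3 was 1.64-fold higher in shZMYND8 (0.72 ± 0.13, 95% interval 0.44 to 1.00, edgeR adjusted p = 0.00513) and 1.65-fold higher in shJARID1D (0.73 ± 0.13, 0.45 to 1.01, edgeR adjusted p = 0.0165), with both values resting on the same control libraries. Between the knockdowns the log2 difference was -0.01 with a 95% interval of -0.28 to 0.27. The call in shZMYND8 was lost without shZMYND8 replicate 1 (edgeR adjusted p = 0.0721, the highest of values from 0.00491 when each library was left out), and the call in shJARID1D without either shJARID1D library (range 0.0124 to 0.127).

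The partners of GINS3 did not pass in any comparison. GINS1 stood at 36.3 and 39.1 CPM in shLuciferase, 32.4 and 37.2 CPM in shZMYND8 and 40.6 and 50.4 CPM in shJARID1D, GINS2 at 32.7 to 37.8 CPM in the first group and 35.1 to 43.0 CPM over the others, and GINS4 at 40.3 to 51.0 CPM over all 6 libraries. CDC45, the other helicase activator, was at 52.9 and 65.7 CPM, 50.6 and 52.5 CPM, and 52.3 and 71.4 CPM. In shZMYND8 the log2 fold changes of these 4 genes lay between -0.20 and 0.04, and in shJARID1D between -0.16 and 0.27, with no adjusted p under 0.280. Whether the response of GINS3 differs from that of its partners was not tested.

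The primase and polymerase genes had no call in any comparison. These 8 genes encode the primase-polymerase alpha complex that starts each strand (POLA1, POLA2, PRIM1, PRIM2) and subunits of the polymerases delta (POLD1, POLD2, POLD3) and epsilon (POLE) that extend it. POLE, the catalytic subunit of polymerase epsilon, stood at 119 and 139 CPM in shLuciferase, 111 and 128 CPM in shZMYND8 and 105 and 108 CPM in shJARID1D. The shJARID1D libraries were lowest and did not overlap the others, with a log2 fold change of -0.28 against shLuciferase (95% interval -0.57 to 0.01, edgeR adjusted p = 0.221). POLD1, the catalytic subunit of polymerase delta, was at 78.0 and 122 CPM within the controls alone, a wider span than the 70.9 to 89.9 CPM of the 4 knockdown libraries. In shZMYND8 the 8 genes ran from -0.41 for POLD1 to 0.06 for PRIM1, and in shJARID1D from -0.28 for POLE to 0.29 for POLD3.

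Of the 6 clamp and loader genes, 2 fell in shZMYND8 (33.3%, beside 7.34% of all genes). Between the knockdowns 2 were lower in shZMYND8 (33.3%, beside 7.02% of all genes). With so few genes these shares rest on single calls. PCNA, the ring that tethers polymerases to DNA, was at 178 and 173 CPM in shLuciferase, 144 and 121 CPM in shZMYND8 and 154 and 156 CPM in shJARID1D. The 3 groups did not overlap, with shZMYND8 lowest. PCNA fell 1.33-fold in shZMYND8 (-0.41 ± 0.12, edgeR adjusted p = 0.0465). This call was near the threshold: over the libraries left out its adjusted p ran from 0.0437 to 0.300, and it was kept only without shLuciferase replicate 2. In shJARID1D PCNA was at -0.18 (edgeR adjusted p = 0.402).

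RFC3, a subunit of the loader that opens the PCNA ring, was at 46.5 and 52.6 CPM in shLuciferase, 33.0 and 32.9 CPM in shZMYND8 and 47.9 and 52.6 CPM in shJARID1D. The shZMYND8 libraries were lower than all others and nearly equal, and the other groups overlapped. RFC3 fell 1.5-fold against shLuciferase (-0.59 ± 0.12, 95% interval -0.86 to -0.31, edgeR adjusted p = 0.0112) and was 1.52-fold lower than in shJARID1D (-0.61 ± 0.12, edgeR adjusted p = 0.0111). The call against shLuciferase was lost without either shZMYND8 library (range of adjusted p 0.00381 to 0.0981). RFC5, another subunit of the loader, was at 59.6 and 62.6 CPM, 49.7 and 47.8 CPM, and 70.1 and 70.9 CPM in the same order. It lay lowest in shZMYND8 and highest in shJARID1D with no overlap, missed the threshold against shLuciferase in both knockdowns (-0.33, edgeR adjusted p = 0.0701, and 0.21, edgeR adjusted p = 0.288), and differed between the knockdowns (-0.53 ± 0.11, 1.45-fold lower in shZMYND8, edgeR adjusted p = 0.0118). RFC1, RFC2 and RFC4 did not pass in any comparison. In shZMYND8 RFC1 was at 0.11 (95% interval -0.15 to 0.37), RFC2 at -0.15 (-0.44 to 0.13) and RFC4 at -0.0045 (-0.25 to 0.24). These intervals all lay above the -0.59 of RFC3, while a smaller fall of these subunits in shZMYND8 was neither shown nor excluded.

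RPA1, the large subunit of the protein that coats single-stranded DNA, fell in shZMYND8. Its level was 136 and 133 CPM in shLuciferase, 104 and 101 CPM in shZMYND8 and 135 and 152 CPM in shJARID1D. The shZMYND8 libraries were below the other 4. RPA1 was 1.32-fold lower than in shLuciferase (-0.40 ± 0.11, edgeR adjusted p = 0.0425) and 1.40-fold lower than in shJARID1D (-0.49 ± 0.11, edgeR adjusted p = 0.0208). Over the libraries left out the adjusted p against shLuciferase ran from 0.0380 to 0.217, and the call was kept only without shLuciferase replicate 2. The smaller subunits RPA2 and RPA3 were at -0.21 and -0.05 in shZMYND8 (edgeR adjusted p = 0.281 and 0.831). The flap endonuclease FEN1, at 166 and 208 CPM in shLuciferase and 166 and 169 CPM in shZMYND8, and the DNA ligase LIG1 (-0.30) did not pass either.

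All 4 genes of deoxynucleotide supply were below 0 in shZMYND8, with a median of -0.42, and TYMS passed. TYMS, thymidylate synthase, was at 119 and 116 CPM in shLuciferase, 88.5 and 87.5 CPM in shZMYND8 and 89.8 and 95.5 CPM in shJARID1D. Both knockdowns lay below the controls and did not overlap them. TYMS fell 1.33-fold in shZMYND8 (-0.41 ± 0.11, 95% interval -0.66 to -0.17, edgeR adjusted p = 0.0305) and was at -0.34 in shJARID1D, which missed the threshold (-0.58 to -0.10, edgeR adjusted p = 0.0982). The call was lost without either shZMYND8 or either shJARID1D library (range 0.0222 to 0.177). The knockdowns differed by -0.07 (-0.32 to 0.17). RRM2, the regulated subunit of ribonucleotide reductase, was at 222 and 236 CPM in shLuciferase, 160.5 and 181 CPM in shZMYND8 and 199 and 240.3 CPM in shJARID1D. It lay lowest in shZMYND8 and missed the threshold (-0.42, edgeR adjusted p = 0.0565), as did RRM1, the large subunit (-0.29, edgeR adjusted p = 0.132), and the thymidine kinase TK1 (-0.46, edgeR adjusted p = 0.141). TK1 was at 151 and 225 CPM in the controls, so that its larger fold change came with a larger spread.

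**Figure D3:**
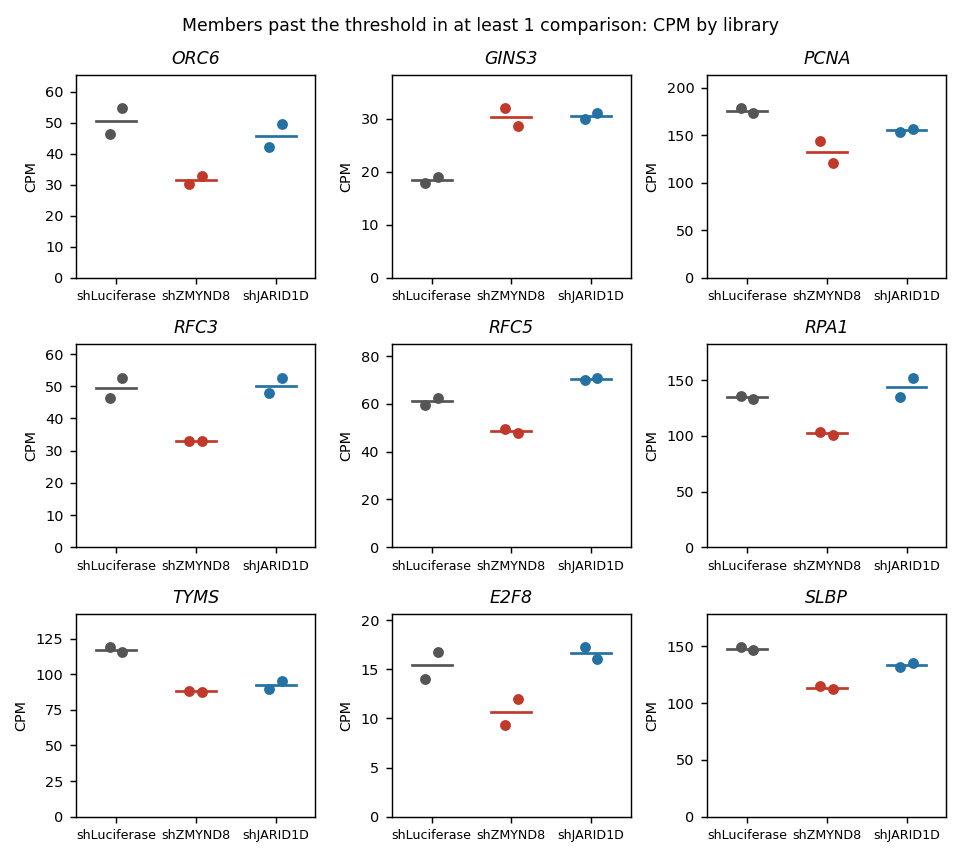
CPM of the 9 members that passed in at least 1 comparison. Points are libraries, bars are means of 2 libraries, and axes start at 0. ORC6, PCNA, RFC3, RPA1, TYMS and SLBP are below both controls in both shZMYND8 libraries, RFC5 and E2F8 separate the knockdowns from each other, and GINS3 is above both controls in all 4 knockdown libraries.

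Of the 3 E2F factors, E2F1 and E2F2 passed in no comparison and E2F8 in the direct comparison of the knockdowns. E2F1, an activator that drives entry into S phase, was at 55.0 and 77.3 CPM in shLuciferase, 55.2 and 61.0 CPM in shZMYND8 and 61.7 and 67.1 CPM in shJARID1D, all knockdown libraries within the range of the controls. E2F2, a further activator, was at 19.8 and 26.8 CPM, 20.6 and 23.8 CPM, and 26.1 and 31.4 CPM. E2F8, a repressor that lacks the RB-binding part and is itself an E2F target, was at 14.1 and 16.8 CPM in shLuciferase, 9.30 and 12.02 CPM in shZMYND8 and 17.2 and 16.0 CPM in shJARID1D. The shZMYND8 libraries were lowest without overlap. E2F8 missed the threshold against shLuciferase (-0.53 ± 0.17, edgeR adjusted p = 0.0604) and was 1.56-fold lower than in shJARID1D (-0.64 ± 0.17, 95% interval -1.02 to -0.26, edgeR adjusted p = 0.0320).

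Among the chromatin genes, SLBP fell in shZMYND8. SLBP binds the stem-loop at the end of histone mRNAs and is needed for their processing. It was at 149 and 147 CPM in shLuciferase, 115 and 112 CPM in shZMYND8 and 132 and 136 CPM in shJARID1D. The groups did not overlap, with shJARID1D between the others. SLBP was 1.30-fold lower in shZMYND8 (-0.38 ± 0.11, 95% interval -0.62 to -0.14, edgeR adjusted p = 0.0406) and at -0.14 in shJARID1D (edgeR adjusted p = 0.459). The call was lost without either shZMYND8 or either shJARID1D library (range 0.0367 to 0.214).

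UHRF1, which brings the maintenance DNA methyltransferase to replicated DNA, had the most negative log2 fold change of the members that did not pass in shZMYND8. It was at 77.3 and 120.4 CPM in shLuciferase, 60.6 and 67.8 CPM in shZMYND8 and 61.3 and 76.3 CPM in shJARID1D. All 4 knockdown libraries were below both controls, which themselves lay far apart. The log2 fold changes were -0.62 in shZMYND8 (edgeR adjusted p = 0.0590) and -0.52 in shJARID1D (edgeR adjusted p = 0.145). DESeq2 counted UHRF1 and RRM2 among the falling genes of shZMYND8, 8 in place of 6. CHAF1A and CHAF1B, subunits of the chaperone that deposits new histones behind the fork, were at -0.20 and 0.11 in shZMYND8 and 0.19 and 0.00 in shJARID1D.

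None of the 5 genes of checkpoint, repair and cell cycle control passed in any comparison. BRCA1, which acts in homologous recombination and fork protection, was at 116 and 104 CPM in shLuciferase, 101 and 111 CPM in shZMYND8 and 132 and 133 CPM in shJARID1D. The shJARID1D libraries were highest, with a log2 fold change of 0.27 (95% interval 0.01 to 0.53, edgeR adjusted p = 0.197). CDC25A, the phosphatase that activates CDK2, was at 49.2 and 65.0 CPM, 56.6 and 71.4 CPM, and 40.6 and 50.5 CPM in the same order, so that the shZMYND8 libraries lay above those of shJARID1D. DTL, which targets CDT1 for destruction during S phase, the checkpoint mediator CLSPN and BRCA2 were between -0.20 and -0.01 in shZMYND8 and between -0.10 and 0.05 in shJARID1D.

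At the median over the members, the libraries of a group lay about as far apart as shZMYND8 and shLuciferase did. Single members went either way. SLBP differed by -0.02 between the shLuciferase libraries and -0.04 between the shZMYND8 libraries, beside -0.38 between these groups. CDT1 differed by 0.60 between the shLuciferase libraries, beside 0.10 between these groups. The second shLuciferase library was higher than the first in 40 of the 52 members, the second shZMYND8 library in 36 and the second shJARID1D library in 48, where 50.2%, 51.5% and 50.2% of all genes tested were higher. The median log2 difference between the libraries of a group was 0.18, 0.12 and 0.16 for the members in that order, and 0.00 in each group over all genes. MCM2 to MCM7 were further apart in the controls, with a median of 0.40, than in shZMYND8 (0.14) or shJARID1D (0.22). The largest gaps in the controls were 0.64 in POLD1 and UHRF1, 0.60 in CDT1 and 0.58 in TK1. The difference of the members' median between shZMYND8 and shLuciferase, -0.17, was thus about the size of the gap between the control libraries. That gap had the same sign in all 3 groups, so it may not be random spread alone. Any part shared by the groups cancels in a comparison between them, so the gap is no direct measure of the error of that comparison. Across the 52 members, these gaps in shLuciferase correlated at 0.38 with those in shZMYND8 and at 0.38 with those in shJARID1D. Between shZMYND8 and shJARID1D the correlation was 0.18. The difference between shZMYND8 and shLuciferase was -0.31 without shLuciferase replicate 1 and -0.07 without replicate 2.

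**Figure D4:**
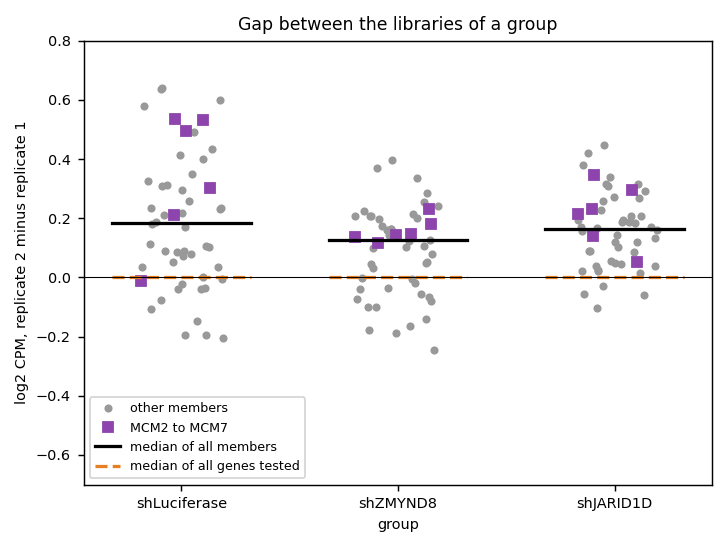
Difference in log2 CPM between the second and the first library of each group, for each member (points), with MCM2 to MCM7 as squares. The median of the members (black) lies at 0.18, 0.12 and 0.16, and that of all genes tested (dashed) at 0.00.

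Other genes of the same pathways were taken from 3 lists. Of 20 regulators of E2F and RB, 3 fell in shZMYND8, 2 rose and 15 did not pass (median -0.04). These shares, 15% lower and 10% higher, stand beside 7.34% and 8.89% of all genes. RB1 itself, defective in this line, was at 83.3 and 64.8 CPM in shLuciferase, 48.5 and 51.6 CPM in shZMYND8 and 63.2 and 61.5 CPM in shJARID1D, and fell in shZMYND8 (-0.57 ± 0.14, edgeR adjusted p = 0.0211). LIN9, of the complex that binds promoters of mitotic genes, fell (-0.46, edgeR adjusted p = 0.0408), while the repressors E2F6 (0.52, edgeR adjusted p = 0.0205) and E2F7 (0.56, edgeR adjusted p = 0.0264) rose. CDK2, the kinase partner of cyclin E, fell in both knockdowns against the same controls, from 146 and 152 CPM in shLuciferase to 116.0 and 116.1 CPM in shZMYND8 (-0.36, edgeR adjusted p = 0.0469) and 105.0 and 108 CPM in shJARID1D (-0.49, edgeR adjusted p = 0.0340). CCNE1, cyclin E1, differed between the knockdowns, 18.3 and 17.4 CPM in shZMYND8 against 11.6 and 10.4 CPM in shJARID1D (0.70 ± 0.14, edgeR adjusted p = 0.0110), with the controls between them at 13.2 and 13.9 CPM. No gene of this list passed in shZMYND8 by edgeR without either shZMYND8 library, and without either shJARID1D library 1 fell. In shJARID1D, where CDK2 was the only gene of the list to fall, the count was 0 to 3 by edgeR with a library left out, 0 without any 1 of the shJARID1D or shZMYND8 libraries and 3 without shLuciferase replicate 1. Between the knockdowns no gene of the list passed by edgeR without any 1 of those 4 libraries.

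Of 34 other replication factors, 8 fell in shZMYND8, none rose by edgeR, and 26 did not pass (median -0.20). The share that fell was 23.5%, beside 7.34% of all genes, and 8.89% of all genes rose. DBF4, the activating subunit of the kinase CDC7, was at 84.6 and 73.9 CPM in shLuciferase, 44.5 and 50.1 CPM in shZMYND8 and 63.5 and 66.6 CPM in shJARID1D, and fell in shZMYND8 (-0.75 ± 0.12, edgeR adjusted p = 0.00390). CDC7 itself was at 0.01. POLE4, an accessory subunit of polymerase epsilon, fell by 0.87 on the log2 scale in shZMYND8 (edgeR adjusted p = 0.00539) and was lower than in shJARID1D (-0.68, edgeR adjusted p = 0.0182). TIMELESS, of the fork protection complex, was lower in shZMYND8 than in shJARID1D (-0.53, edgeR adjusted p = 0.0120). In shJARID1D 2 factors of the list fell, ORC2 (-0.63, edgeR adjusted p = 0.0223) and DBF4B (-0.76, edgeR adjusted p = 0.0302), and 2 rose, MMS22L (0.59, edgeR adjusted p = 0.0377) and POLD4 (0.52, edgeR adjusted p = 0.0379). That is 5.88% in each direction, beside 2.79% of all genes lower and 2.96% higher. With a library left out, these counts were 0 to 4 lower and 0 to 2 higher, with none in either direction by edgeR without either shJARID1D library, 1 lower and 0 higher without either shZMYND8 library, and 4 lower without shLuciferase replicate 1. Between the knockdowns no factor of the list passed by edgeR without any 1 of the shZMYND8 or shJARID1D libraries. ORC2 and ORC6 encode subunits of the same complex: ORC2 was lower in shJARID1D than in shZMYND8 (70.5 and 60.6 CPM against 91.2 and 94.2 CPM), while ORC6 was lower in shZMYND8. Without shZMYND8 replicate 1 none of the 34 fell by edgeR, and without replicate 2 there were 4.

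Of 32 other genes of nucleotide supply and E2F targets, 8 fell in shZMYND8, 2 rose and 22 did not pass (median -0.21), which is 25% lower and 6.25% higher beside 7.34% and 8.89% of all genes. In shJARID1D none of the 32 passed by edgeR, where unadjusted p was under 0.05 for 6 of them. Leaving out shLuciferase replicate 1 gave 3 lower. In shZMYND8 the fallers with the smallest adjusted p were ATAD2, a chromatin ATPase (-0.66, edgeR adjusted p = 0.00674), and DEK, a chromatin protein (-0.64, edgeR adjusted p = 0.0126). The risers act in the breakdown of nucleosides or deoxynucleotides and are also known as interferon-inducible: TYMP, thymidine phosphorylase, went from 56.8 and 43.2 CPM in shLuciferase to 131 and 90.5 CPM in shZMYND8 (1.15 ± 0.21, edgeR adjusted p = 0.00622), and SAMHD1, which hydrolyses deoxynucleotides, from 68.1 and 58.1 CPM to 133 and 90.9 CPM (0.83 ± 0.19, edgeR adjusted p = 0.0168). In shJARID1D TYMP was at 82.3 and 61.6 CPM and SAMHD1 at 99.9 and 78.9 CPM, and neither passed. Without shZMYND8 replicate 1 none of the 32 passed in shZMYND8 by edgeR, while 2 fell without replicate 2 and 3 without either shJARID1D library.

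Mitotic genes, which are expressed later in the cycle, were lower by a larger margin. In shZMYND8, 30 of the 30 listed G2/M genes fell, with a median of -0.82, beside 6 of 52 members with a median of -0.17. Of all genes tested, 7.34% fell there. In shJARID1D the medians were -0.30 for the G2/M list, in which AURKA fell and 29 genes did not pass, and 0.00 for the members. AURKA alone makes 3.33% of the list, near the 2.79% of all genes that fell in shJARID1D. Between the knockdowns 13 of 30 G2/M genes (43.3%) and 5 of 52 members (9.62%) were lower in shZMYND8, beside 7.02% of all genes. Summed CPM of the G2/M list was 8824 and 8452 in shLuciferase, 4436 and 5522 in shZMYND8 and 6535 and 7360.5 in shJARID1D, 3 groups without overlap. The G2/M count in shZMYND8 was 11 to 29 over the libraries left out, the lowest without shZMYND8 replicate 1. The count between the knockdowns was 4 to 20, again lowest without shZMYND8 replicate 1, and that in shJARID1D was 0 to 3, with none by edgeR without either shJARID1D library. A test of the difference between these lists was not run, and TOP2A is in both the G2/M list and the list of other replication factors.

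**Figure D5:**
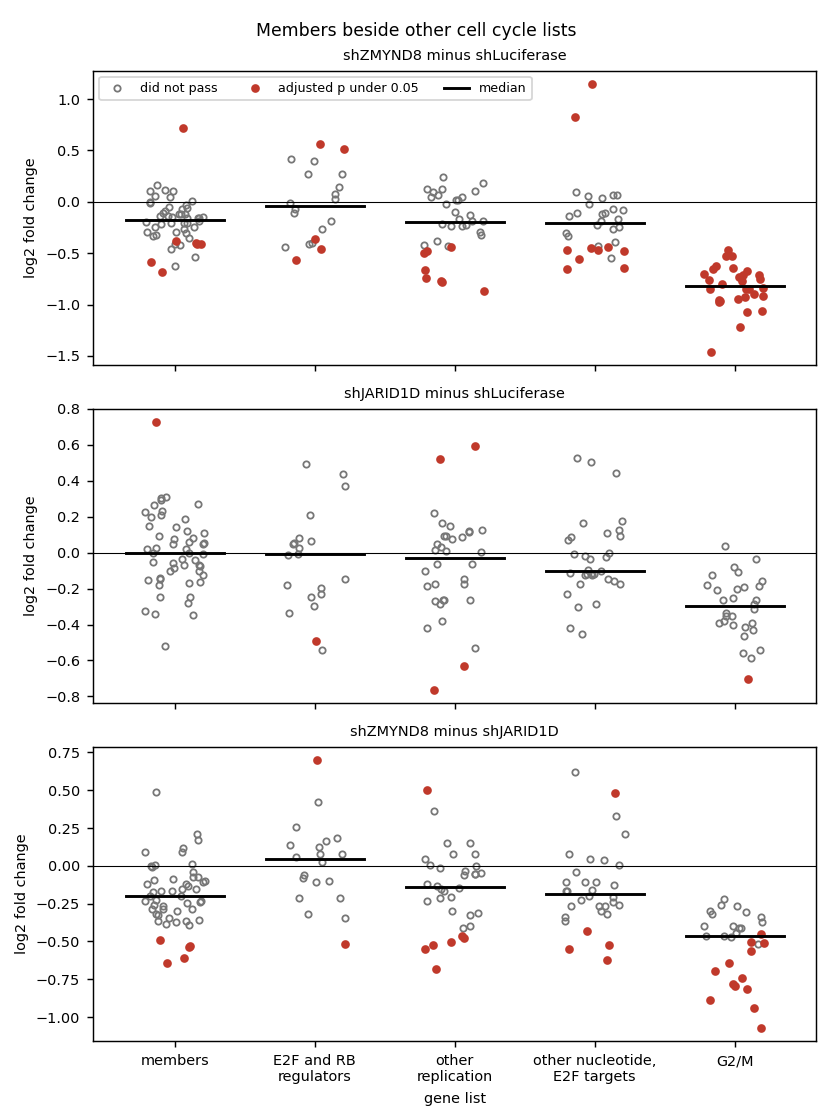
Log2 fold changes of the 52 members and of the genes of 4 other lists in the 3 comparisons. Filled points have an adjusted p under 0.05 and bars are medians, which in the top panel are -0.17 for the members and -0.82 for the G2/M list.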

How the data were processed

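RNA was sequenced from 6 of the 35 samples of the series, 2 per group. The other 29, from chromatin immunoprecipitation or its input, are not used. The values are expected counts (estimated fragments per gene and library) in a table deposited by the authors, whose file header has the form of a Cuffdiff count-tracking table. Per the submitters' processing notes the build was hg19 and the tools included Cuffdiff, edgeR 3.12.0, Bowtie 1.1.2 and TopHat2 2.0.12, with no role for each. Of strand and annotation the sources used here say nothing. Deposited counts carry a scaling per library: 1 fragment has a value of 0.881 to 1.16. Status marks (OK, FAIL or HIDATA) were deposited by the authors beside the counts, and 60 genes marked HIDATA (not quantified) in a library were left out. The 18 variance columns were not used. The columns named Rac7_KO were read as shZMYND8, since an antibody label gives RACK7 as a name of ZMYND8.

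Counts were rounded and tested in R 4.3.3 by the quasi-likelihood F test of edgeR 4.0.16 (trimmed mean of M values, filterByExpr) in 1 fit of all 6 libraries without a replicate block (3 residual degrees of freedom, common biological coefficient of variation 12.3%). The 95% intervals use the moderated degrees of freedom. The members, lists and rules were chosen with earlier results of these data known. Values in every library are given for members past the threshold, for a member with the highest mean CPM in role groups without one, and for further members chosen after their values were seen. From each other list up to 2 genes each way per comparison follow the rule, and CDK2, CDC7 and the list members used for context were chosen after their values were seen. Alternatives were other scalings, filters, DESeq2 1.42.0, limma voom (limma 3.58.1), only the groups compared, a replicate block, each library left out, the deposited scaling undone and a threshold of 0.01. Scripts were tested on simulated data.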

Additional observations from a re-analysis of the deposited data

How the results depend on the processing

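Counts of members past the threshold moved with the settings, while no log2 fold change of a member past the threshold changed sign under any of the 16 alternatives. The share of all genes past the threshold under each alternative is not given, so these counts describe the settings and not the members. The members lower in shZMYND8 than in shLuciferase numbered 6, but 3 with library totals only, 2 with only the groups compared, 12 with the replicate block and 1 (ORC6) at a threshold of 0.01. Leaving out 1 library gave 0 to 14 lower and 0 to 1 higher, with a median log2 fold change of -0.31 to -0.0699. In shJARID1D against shLuciferase, 1 member was higher and 0 lower. At a threshold of 0.01 there were 0 higher, with the replicate block 1 lower (UHRF1), and with libraries left out 0 to 2 higher and 0 to 4 lower. In shZMYND8 against shJARID1D, 0 were higher and 5 lower. There were 3 lower without the filter, 12 lower and 1 higher (CDC25A) with only the groups compared, 13 lower and 1 higher (CDC25A) with the replicate block, and 0 lower at a threshold of 0.01. Libraries left out gave 0 to 12 lower and 0 to 1 higher. In shJARID1D the G2/M genes that fell numbered 1, but 7 by DESeq2 and 10 with the replicate block. A group left with 1 library takes its spread from the others, by assumption.

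Replicate numbers are shared by the labels and by nothing else known. The differences between replicates 2 and 1 correlated across 11409 genes at 0.21 to 0.35 between groups, a hint from the data and not from the design, so the block is given here alone. With 2 libraries per group, the median half-width of the 95% interval of a member in shZMYND8 was 0.29 on the log2 scale.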

Other observations

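The rise of GINS3 was set beside its neighbours on chromosome 16 in the RefSeq order of protein-coding genes, chosen after the values were seen. CSNK2A2, CCDC113, NDRG4, SETD6 and CNOT1 did not pass in either knockdown: their log2 fold changes lay between -0.07 and 0.14 in shZMYND8, and in shJARID1D CCDC113 was at -0.48 (edgeR adjusted p = 0.0607), SETD6 at -0.52 (edgeR adjusted p = 0.0554) and NDRG4 at 0.16. PRSS54, the next gene before GINS3, had no fragments in any library. The neighbour that follows GINS3, NDRG4, was at 18.9 and 17.9 CPM in shLuciferase, 17.8 and 18.0 CPM in shZMYND8 and 22.8 and 18.3 CPM in shJARID1D.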
